A study of Mus musculus with 9 samples.

Results

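DNA methylation was compared between cultured tail-tip fibroblasts and embryos made by nuclear transfer (NT) from such cells, within the strain labelled BDF1-CAST. All libraries whose titles carry that strain label were taken, 5 of the 9 in the series, and they form 4 of its 8 samples: fibroblast samples 1 and 2 (label TT) and NT embryo samples 1 and 2 (label NTZy14). Fibroblast library 1 had been sequenced again as library 1a, and the calls of both were summed. The fibroblasts came from adult male mice and were grown to confluence in medium with serum. For the NT embryos, a fibroblast nucleus was placed into an enucleated C57/B6 oocyte, the polar body was removed, and the egg was activated with SrCl2 in the presence of cytochalasin B, which keeps the egg from extruding chromosomes. The zona was stripped before collection. The labels explain neither the number 14 in NTZy14 nor how many embryos or animals were pooled per sample. The labels do not say that the samples of a stage came from separate cultures or donors, so each p-value below reflects only how far these samples spread, and that spread may be technical. All 4 samples carry the same strain label, so the fibroblasts are the only control.

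Methylation was read by reduced representation bisulfite sequencing, in which DNA is cut with MspI at CCGG and unmethylated cytosines are converted, so that each read covering a CpG gives a call, methylated or not. The methylation level is the methylated share of the calls. Calls were summed in tiles of 100 bp, and 367618 of the 779430 tiles with any call had at least 10 calls in each of the 4 samples. Fibroblast samples 1 and 2 held 80142240 and 39566087 calls, against 30396273 and 26750286 in the NT embryo samples, and the median CpG had 29, 15, 10 and 8 calls. Libraries 1 and 1a were no closer to each other than 1a was to sample 2: the mean chi-square per CpG was 1.60 between 1 and 1a, 1.44 between 1a and 2, and 1.72 between 1 and 2.

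In mammals, a somatic cell keeps most CpGs outside CpG islands methylated, while the CpG-rich promoters of most genes are free of methylation. A small group of promoters, many of them of genes used only in germ cells, is CpG-rich and methylated in somatic cells, where the mark keeps the gene silent. After fertilization the oocyte cytoplasm removes methylation from the incoming genome, actively and by dilution through replication, and nuclear transfer exposes a somatic genome to the same cytoplasm.

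The upstream sequences of 4 genes described below are shown first, because the levels of their single CpGs are plotted further on. They were picked after their values had been seen. Each runs 5′ to 3′ over the 250 bases before the gene's start, from the RefSeq promoter table (build GRCm38.p6). The positions are on mm9, found by matching the spacing of the CpGs to the CpG positions of the libraries. Capitals mark CpGs with at least 1 call in each of the 4 samples. Ddx4 encodes a germ cell RNA helicase, Zglp1 a zinc finger factor of germ cells, Slc25a31 a mitochondrial ADP/ATP carrier of the germ line, and Acp5 the tartrate-resistant acid phosphatase of osteoclasts.
Ddx4, chr13:113442518-113442767, minus strand: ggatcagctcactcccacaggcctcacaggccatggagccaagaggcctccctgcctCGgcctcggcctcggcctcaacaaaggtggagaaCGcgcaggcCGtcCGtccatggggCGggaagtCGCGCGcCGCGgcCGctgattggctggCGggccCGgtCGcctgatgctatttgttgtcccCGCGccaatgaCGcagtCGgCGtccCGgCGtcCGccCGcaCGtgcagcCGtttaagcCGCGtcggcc
Zglp1, chr9:20871537-20871786, minus strand: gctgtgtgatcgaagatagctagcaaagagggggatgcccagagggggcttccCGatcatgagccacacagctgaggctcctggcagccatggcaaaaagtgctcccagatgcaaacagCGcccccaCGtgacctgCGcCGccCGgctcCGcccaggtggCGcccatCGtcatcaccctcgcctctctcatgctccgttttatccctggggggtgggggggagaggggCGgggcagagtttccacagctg
Slc25a31, chr3:40512542-40512791, plus strand: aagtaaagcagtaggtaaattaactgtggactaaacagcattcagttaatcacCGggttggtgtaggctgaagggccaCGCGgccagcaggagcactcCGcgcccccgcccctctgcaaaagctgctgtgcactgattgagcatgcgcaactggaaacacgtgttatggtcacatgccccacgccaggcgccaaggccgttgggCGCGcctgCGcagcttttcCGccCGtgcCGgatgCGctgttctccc
Acp5, chr9:21936309-21936558, minus strand: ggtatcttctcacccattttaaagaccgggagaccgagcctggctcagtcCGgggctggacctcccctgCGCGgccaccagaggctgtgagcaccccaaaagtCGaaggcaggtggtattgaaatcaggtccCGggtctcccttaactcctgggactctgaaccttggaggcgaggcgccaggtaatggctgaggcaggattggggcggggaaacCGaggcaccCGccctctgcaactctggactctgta
Calls in all samples covered 27 of the 31 CpGs shown for Ddx4, 10 of 13 for Zglp1, 11 of 18 for Slc25a31 and 7 of 12 for Acp5. The sequence CACGTG, an E-box, which reads the same on both strands, occurs in those of Ddx4, Zglp1 and Slc25a31 and not in that of Acp5. It occurs in 7.15% of all 32851 promoters of 300 bases in the table, in 10.8% of the 9844 that could be placed, and in 12 of the 87 placed promoters (13.8%) of genes whose window was called lower in NT embryos. GCGGGA, searched on both strands, lay in the Ddx4 sequence and in 19.98% of all promoters, 45.1% of those placed and 19.5% of those of genes called lower. Among the 66 placed promoters of genes with a window at 60% or more in fibroblasts and no window called lower, 10.6% held CACGTG and 21.2% held GCGGGA. The upstream sequences of some other called genes were searched too. That of Sycp1 held CACGTG, and those of Asz1, Sohlh2, Rpl10l and Hoxa6 did not. Of these, only that of Rpl10l held GCGGGA.

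Over the 671551 CpGs with at least 10 calls in each sample, fibroblast samples 1 and 2 had mean levels of 34.3% and 33.2%, and NT embryo samples 1 and 2 had 27.7% and 28.1%. Both NT samples lay below both fibroblast samples. The group means were 33.8% ± 0.750 and 27.9% ± 0.229 (SD, n = 2 each), a difference of -5.85 points, for which the two-sided exact permutation p was 0.333, the smallest that 2 samples against 2 can give. The change lay at the methylated end of the distribution. CpGs at 80% or more made up 25.6% and 22.9% of the fibroblast CpGs and 14.0% and 13.1% of the NT CpGs, while those between 20% and 80% went from 18.1% and 19.98% to 25.0% and 27.3%. CpGs under 20% were the majority in every sample, at 56.4% and 57.1% in fibroblasts and 61.0% and 59.6% in NT embryos. In the plot of CpG levels, the fibroblast peak above 80% is lower in NT embryos. Both NT samples have larger shares than both fibroblast samples in each bin from 10% to 75% and in the bin under 5%. Fewer calls per CpG by themselves spread levels more, and how much the lower depth of the NT samples adds here was not tested.

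**Figure D1:**
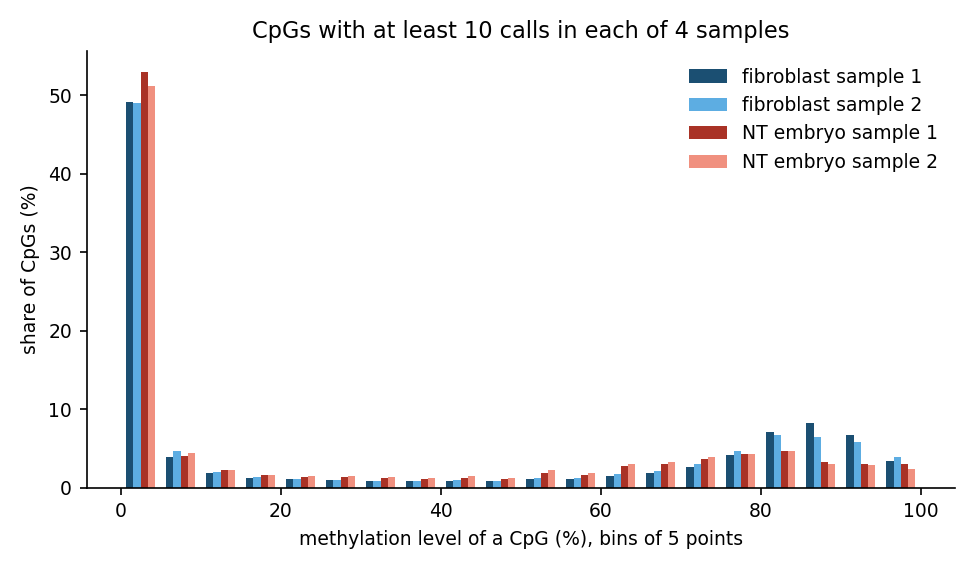
Share of CpGs (%, y axis) by methylation level (%, x axis, bins of 5 points) in the 4 samples, 671551 CpGs. The bars above 80% are taller in both fibroblast samples (blue) than in both NT embryo samples (red), whose bars are taller between 60% and 75%.

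Tiles that were highly methylated in the fibroblast samples mostly kept part of their methylation. For the 101267 tiles at 80% or more in both fibroblast samples, the median went from 87.8% in fibroblasts to 73.6% in NT embryos. In the mean of the NT samples, 30.9% of these tiles were still at 80% or more, 47.3% were between 60% and 80%, 19.6% were between 20% and 60%, and 2.25% were under 20%. In 19.8% of them the NT sample was at least 20 points below the fibroblast sample in both same-numbered comparisons. Where calls were plentiful the losses were smaller: of 19032 such tiles with at least 50 calls in each sample, 14.7% were under 60% in NT sample 1 and 14.7% in NT sample 2, against 23.0% and 22.5% of all such tiles.

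Unmethylated tiles stayed low. Of 119225 tiles under 20% in both fibroblast samples, 97.1% were under 20% in the mean of the NT samples, with medians of 1.44% and 0.969% in the stages.

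To see how the change depends on the starting level without using the same calls for both, each tile was placed in a class by the fibroblast sample of the other number, and the change was measured between the 2 samples that did not choose the class. Tiles starting under 20% had mean changes of -1.07 points in the comparison of samples numbered 1 and 0.241 points in that of samples numbered 2. The means were -11.98 and -3.12 points from 20% to 40%, -17.5 and -9.76 points from 40% to 60%, -17.0 and -13.6 points from 60% to 80%, and -17.7 and -15.5 points from 80% to 100%. The classes above 60% therefore lost similar amounts in both comparisons, while in the middle classes the 2 comparisons lay further apart. In those classes the NT samples had similar mean levels, 23.7% and 23.3% from 20% to 40% and 39.9% and 38.4% from 40% to 60%. The fibroblast samples that measured the change differed more, at 35.7% and 26.4% and at 57.4% and 48.1%. These means have no test, and 1 fibroblast sample serves to choose and the other to measure, so the values of the pairs share their samples.

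**Figure D2:**
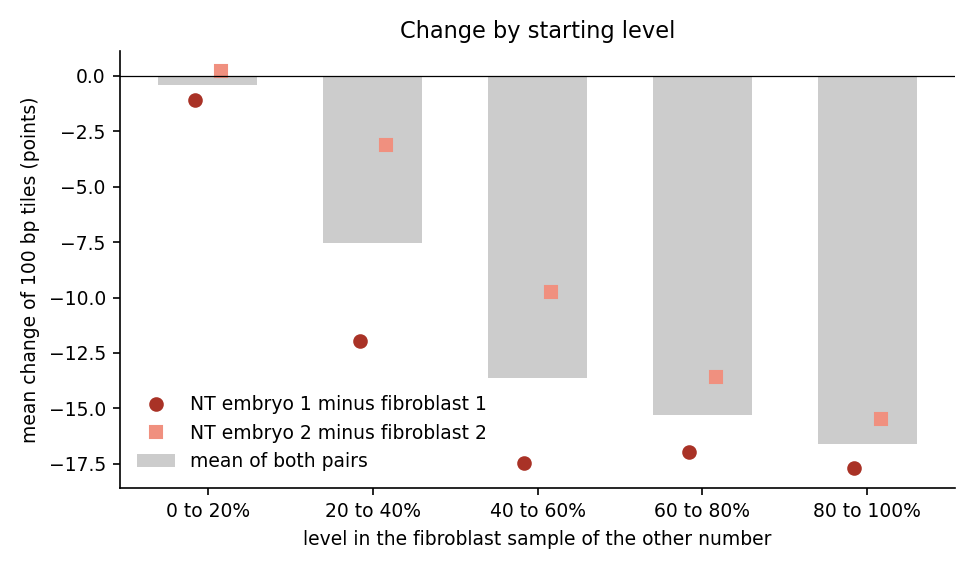
Mean change of 100 bp tiles in points (y axis) by level in the fibroblast sample of the other number (x axis). Circles and squares are the comparisons of samples numbered 1 and 2, and grey bars are their mean. Both lie at -13.6 points or lower in the classes above 60% and near 0 in the class under 20%.

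Agreement between the NT samples was lower than between the fibroblast samples. Among 247838 tiles with a mean level of 10% to 90%, the median absolute difference was 5.88 points between fibroblast samples and 12.6 points between NT samples. With at least 50 calls in each sample (42130 tiles) the medians were 4.14 and 8.42 points. That minimum does not make depth equal between the stages, and how much lower depth adds to the NT value was not tested. Across the 367618 tiles, levels correlated at r = 0.973 between the fibroblast samples and 0.812 between the NT samples, a description over tiles that share libraries. The change between samples numbered 1 and that between samples numbered 2, which share no sample, correlated at r = 0.406 over all tiles. Unmethylated tiles cannot fall, and how much of this correlation comes from the starting level was not tested. Among the 247838 tiles at 10% to 90% the correlation was r = 0.346. Among the 42130 of them with at least 50 calls in each sample it was r = 0.466. Changes also ran together along the chromosome. This was measured only on tiles at 60% or more in both fibroblast samples. The change of such a tile in the samples numbered 1 was set against that of the tile next to it in the samples numbered 2. The correlation was r = 0.373 (50409 pairs of tiles), 0.393 for tiles 1000 bp away and 0.224 for tiles 100000 bp away.

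No tile was called in the test over all tiles. Calls required an adjusted p under 0.05 (quasi-binomial model, Benjamini-Hochberg) and at least 20 points between mean sample levels. Of the 367618 tiles, 0 met this, 0% in either direction, and the smallest adjusted p was 0.165. At an unadjusted p under 0.05 there were 69972 tiles (19.03%), 63987 lower and 5985 higher in NT embryos, and limma, run on the arcsine of the square root of each level, likewise called 0, with 77617 at an unadjusted p under 0.05. Both NT samples lay below both fibroblast samples in 44.3% of all tiles and above both in 7.31%. Calls appeared under 2 other settings. Tiles of 1000 bp, which hold more calls each, gave 22089 lower (11.0%) and 381 higher (0.190%) of 200117. Restricting the test to the 255338 tiles with a mean level of 10% or more, a choice made after the result over all tiles was seen, gave 20473 lower (8.02%) and 625 higher (0.245%). That restricted count was 0 by limma, 0 when either fibroblast sample was left out, and 53018 and 60961 when NT embryo sample 1 or 2 was left out. The calls therefore rest on both fibroblast samples, and the large count without an NT sample assumes that the lone NT sample varies like the fibroblasts.

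The largest differences are described as values without a call. The tile at chr4:115825500-115825599, with 4 CpGs, was at 93.9% and 97.9% in fibroblasts and at 0% in both NT samples, on 378, 48, 37 and 69 calls. Its nearest placed gene start, that of Pomgnt1, an enzyme that adds sugars to dystroglycan, lies 2428 bp upstream of it. Tiles at chr9:58383300-58383399 and chr6:122464800-122464899 also had no methylated call in either NT sample, against 97.8% and 93.3%, and 96.2% and 92.9%, in fibroblasts. The 8 largest falls among the 66220 tiles that met the naming rule ranged from -93.3 to -95.9 points. That the stages do not overlap in them was part of the rule. Neighbouring CpGs in a tile share reads, and no molecular identifiers are given, so 37 calls need not be 37 molecules.

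The mean rose by at least 20 points in 6038 of the 367618 tiles (1.64%). Among them 1652 had been under 20% in both fibroblast samples, 1.39% of all tiles in that class. Another 2156 had been between 20% and 60% in both (7.06% of that class), and 649 at 60% or more in both (0.343%). A rise as large as those named here leaves room only for a low start. The tile at chr7:109417000-109417099, 718 bp downstream of the placed start of Stim1, a calcium sensor of the endoplasmic reticulum, was at 12.1% and 15.5% in fibroblasts and 72% and 91.3% in NT embryos, on 280, 84, 25 and 23 calls. The tile at chr15:54577400-54577499 had 0% in both fibroblast samples and 64.0% and 42.9% in NT embryos. A CpG-dense tile at chr8:86707600-86707699, with 12 CpGs, was at 4.59% and 3.76% in fibroblasts and at 75.5% and 33.3% in NT embryos. In that tile the NT samples lay far apart. The 8 largest rises ranged from 50.2 to 67.8 points.

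Under the restricted test, called tiles of the same direction within 1000 bp were joined, giving 17085 lower and 597 higher regions, of which 84.5% and 95.5% were single tiles. The longest lower region, chr3:93084000-93091699, held 20 called tiles, at 92.0% and 84.0% in fibroblasts and 35.2% and 40.3% in NT embryos. Another at chr3:93092700-93094499 lay just beyond it, with 7 tiles at 91.6% and 89.7% in fibroblasts and 22.4% and 24.1% in NT embryos. A region on X, chrX:98891300-98893899, went from 77.8% and 73.5% to 11.6% and 19.9% over 8 tiles. The longest higher region, chr11:11925600-11926499, held 3 tiles, at 21.7% and 19.4% in fibroblasts and 56.2% and 47.3% in NT embryos. In these 4 regions the NT samples lay within 10 points of each other. In 2 others they lay further apart: chr11:60002800-60004499 (7 tiles, lower) was at 17.4% and 29.4% in NT embryos, and chr2:33632400-33632599 (2 tiles, higher) at 57.7% and 81.0%.

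The fall of methylated tiles differed between chromosomes. Tiles at 60% or more in both fibroblast samples (13326 on X and 175713 on autosomes) had mean levels of 83.7% and 81.9% on X in fibroblasts and 72.04% and 72.7% in NT embryos. On autosomes the means were 83.5% and 81.9% in fibroblasts and 65.3% and 65.8% in NT embryos. X minus autosomes was 0.282 and -0.0606 points in fibroblasts and 6.70 and 6.85 points in NT embryos, a difference of 6.66 points (two-sided exact permutation p = 0.333, the smallest possible). It was 5.77 points when autosomal tiles were reweighted to the X tiles in CpG density and fibroblast level. Among autosomes, with the class taken from the fibroblast sample of the other number, the mean change was lowest on chromosome 11 (-24.1 and -21.5 points), followed by chromosomes 19 (-21.5 and -18.4) and 17 (-20.3 and -17.9). Chromosome X had -11.5 and -8.49. The smaller fall on X was not seen in promoter windows at 60% or more in both fibroblast samples. These went on X (5 windows) from means of 86.9% and 85.3% to 30.9% and 45.2%. On autosomes (105 windows) they went from 78.3% and 75.4% to 46.4% and 47.7%. The X windows include Xlr5a (3.25% and 37.3% in NT embryos) and Xlr5b (7.55% and 45.6%), whose reads can come from other copies. The others were Yy2 (25.0% and 29.2%), Gm35790 (22.5% and 34.8%) and Gm35105, which stayed at 96.4% and 79.0%. In males X is a single copy: over unmethylated promoter windows the ratio of median calls per CpG on X to that on autosomes was 0.526 and 0.553 in fibroblasts and 0.563 and 0.619 in NT embryos (197 windows on X). Over all covered CpGs that ratio was 0.759 and 0.733 in fibroblasts and 0.8 and 0.889 in NT embryos. The labels give the fibroblast donors as male.

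**Figure D3:**
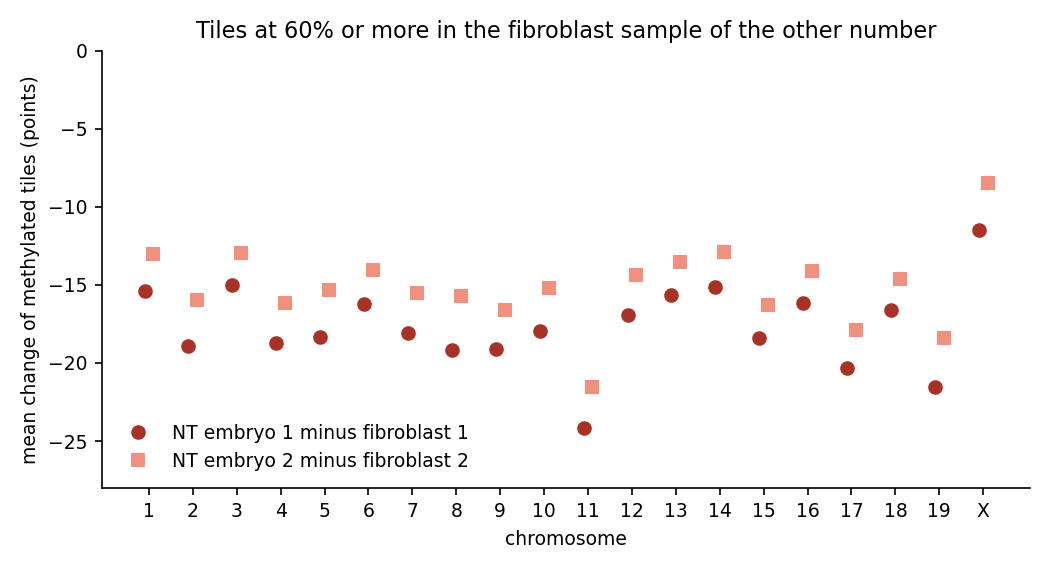
Mean change of methylated tiles in points (y axis) on each chromosome (x axis), circles for samples numbered 1 and squares for samples numbered 2. Chromosome 11 lies lowest and X highest in both comparisons.

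The change was also set against CpG density, the deposited mean number of CpGs within 50 bp of the CpGs of a tile. Among tiles at 60% or more, the mean change was -14.4 points at densities of 1 to 2 and -15.7 points at 2 to 3. It was -19.97 points at 3 to 4 and -19.03 points at 4 to 5. At higher densities it was -13.3 points at 5 to 6, -15.0 points at 6 to 8 and -15.6 points at 8 to 12. At densities from 12 to 30 it was -31.1 points, but there 100 and 123 tiles entered the 2 comparisons. These means have no test.

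Gene names came from RefSeq promoters placed by their CpG spacing. Of 18541 with at least 6 CpGs, 9922 had 1 clear match in the CpG map, of which 9850 (99.3%) lay on the chromosome the table gives. The 9844 that also kept the table's order were used, with a median of 19 CpGs matched. For each placed start a window from 1000 bp before to 500 bp after was tested as a whole, 8991 windows in all, with a median of 2025, 1036, 919 and 745 calls. A window's level pools the calls of its CpGs, so it also depends on which CpGs the calls cover. Most promoters were unmethylated in all samples, 8705 windows being under 20% in both fibroblast samples with medians of 1.40% and 1.21%. In the test over all windows (same model, added after the tiles had been seen), 76 were called lower in NT embryos (0.845%) and 1 higher (0.0111%). The test over only the 300 bases of the promoter sequence called 0 of 9599, with 1132 at an unadjusted p under 0.05. Both NT samples lay below both fibroblast samples in 37.0% of all windows and above both in 11.2%. No window was called when either fibroblast sample was left out, and 15 were called by limma.

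Windows were then split by their level in fibroblasts. Of 110 windows at 60% or more in both fibroblast samples, 54 were called lower and their median went from 78.3% to 47.0%. Of 176 windows between these classes, 22 were called lower, with medians of 31.2% and 17.5%. A window under 20% could not be called lower, since a call needs a fall of 20 points. At any size of change, 178 of these 8705 had an adjusted p under 0.05, 109 of them lower. Of the 76 windows, 27 have only predicted gene symbols, and the smallest number of calls in any was 10.

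Germ cell genes formed the list with most calls. These genes serve meiosis, the piRNA pathway that silences transposons, and germ cell development. The list was known from earlier results of these data, so its direction is not independent evidence. Windows could be placed for 9 of its 16 genes, and 7 were called lower, against 0.845% of all windows and 54 of the 110 windows at 60% or more in fibroblasts (49.1%). In all 9, both NT samples lay below both fibroblast samples, against 37.0% of all windows and 95 of those 110 (86.4%). The median level went from 77.5% in fibroblasts to 45.4% in NT embryos.

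Rpl10l, a ribosomal protein gene copied by retrotransposition and used in the testis, was at 91.2% and 90.8% in fibroblasts and 5.32% and 53.5% in NT embryos, a difference of -61.6 points (adjusted p = 0.0391, quasi-binomial model). The NT samples of this window lay 48.2 points apart. Its CpG 152 bp before the start, at 8.33% and 10% in fibroblasts, gave 12 and 10 of the window's 694 and 316 fibroblast calls. In NT embryos that CpG gave 71 of 188 and 65 of 529. How much of the difference comes from this shift in covered CpGs was not tested. At its CpGs 41 to 58 bp after the start, fibroblast levels were at least 90.3%. There NT sample 1 was at 0% and NT sample 2 at 44.3% to 67.1%. Sycp1, a component of the synaptonemal complex that joins chromosomes in meiosis, was at 80.2% and 70.3% in fibroblasts and 25.5% and 38.1% in NT embryos (-43.5 points, adjusted p = 0.0136). Tdrd1, a tudor protein of the piRNA pathway, was at 66.5% and 68.4% in fibroblasts and at 22.9% and 25.5% in NT embryos (-43.3 points, adjusted p = 0.00918), with NT samples 2.60 points apart, and it was the only list member called by limma as well (adjusted p = 0.0299). Dazl, an RNA-binding protein of germ cells, was at 85.7% and 83.8% in fibroblasts and at 33.6% and 57.3% in NT embryos (-39.3 points, adjusted p = 0.0139).

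Asz1, another piRNA pathway protein, was at 87.3% and 92.1% in fibroblasts and 45.5% and 62.9% in NT embryos (-35.5 points, adjusted p = 0.0228). Ddx4, whose sequence is shown above, was at 78.3% and 73.1% in fibroblasts and 35.5% and 52.2% in NT embryos (-31.9 points, adjusted p = 0.0201). Tex101, a glycoprotein of germ cells, was at 81.4% and 73.6% in fibroblasts and 61.7% and 49.5% in NT embryos (-21.9 points, adjusted p = 0.0376), and was not called without library 1a (adjusted p = 0.054). The remaining 2 did not pass the test: Hormad1, a protein of meiotic chromosome axes, had a difference of -25.7 points (adjusted p = 0.135), and Mael, a piRNA pathway protein, had -11.5 points (adjusted p = 0.0968). None of the 9 was called when either fibroblast sample was left out (smallest adjusted p 0.721 and 0.330), while 8 and 6 were called without NT embryo sample 1 or 2. The mean levels of the 7 called windows in NT embryos ran from 24.2% (Tdrd1) to 55.6% (Tex101).

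**Figure D4:**
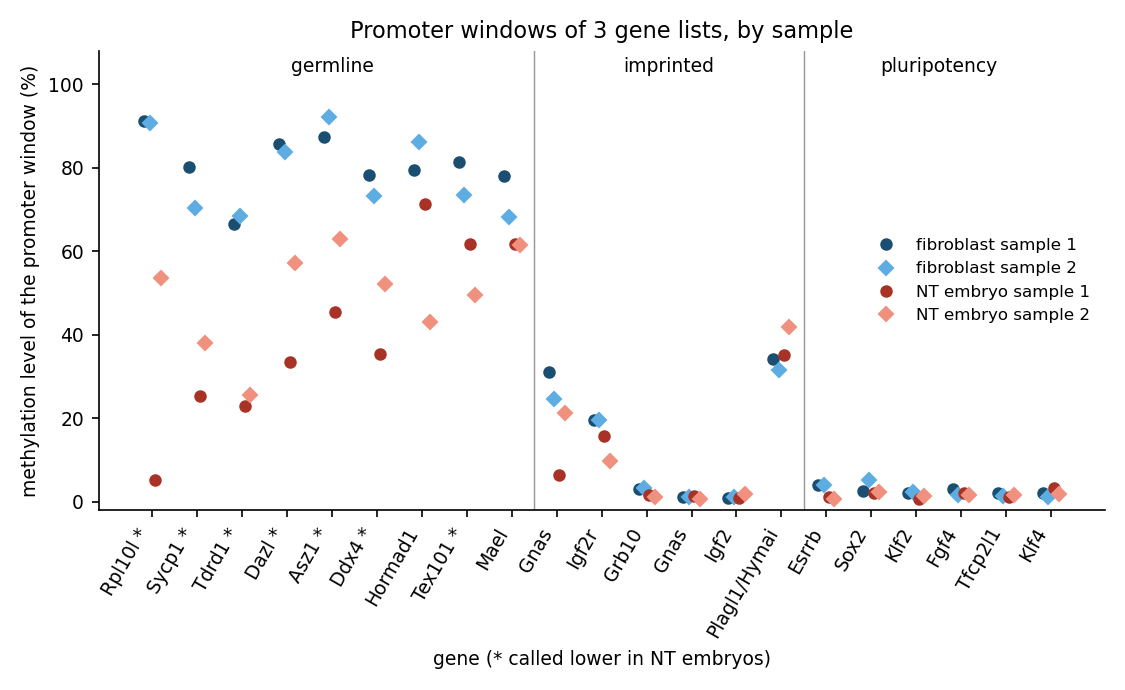
Methylation level of promoter windows (%, y axis) in each sample for the genes of 3 lists (x axis), with stars for the 7 windows called lower. In all 9 germ cell windows both NT embryo samples (red) lie below both fibroblast samples (blue), whereas the pluripotency windows lie under 6% in every sample.

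Other germ cell genes had windows among the 76, chosen here after their values were seen. Zglp1 was at 80.1% and 82.7% in fibroblasts and 16.6% and 26.2% in NT embryos (-59.98 points, adjusted p = 0.00552, quasi-binomial model), and limma called it too (adjusted p = 0.0409). Of the next 4, limma called Sohlh2 (adjusted p = 0.0397) but not Slc25a31 (0.0645), Dmrtb1 (0.0928) or Iho1 (0.114), and Iho1 was also lost without library 1a (0.0693). Slc25a31 went from 92.0% and 87.9% to 53.2% and 61.6% (-32.6 points). Sohlh2, a transcription factor of germ cell differentiation, went from 91.0% and 88.5% to 58.6% and 57.6% (-31.7 points). Dmrtb1, a factor of spermatogonia, went from 83.6% and 76.1% to 53.1% and 45.4% (-30.7 points), and Iho1, needed for meiotic DNA breaks, from 75.1% and 63.1% to 38.5% and 40% (-29.8 points). The NT samples of these 5 windows differed by at most 10 points. Btbd18, a germ cell gene of piRNA production, shares a window with Ctnnd1, which encodes the cell adhesion protein p120 catenin. That window was at 88.6% and 89.4% in fibroblasts and 17.2% and 26.3% in NT embryos (-67.2 points).

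Windows of genes with other or broader roles were also among those called. Hoxa6, a homeobox gene of body patterning, was at 36.4% and 34.5% in fibroblasts and 8.39% and 13.3% in NT embryos (-24.6 points). Hes7, a factor of the segmentation clock, was at 25.5% and 31.0% in fibroblasts and 2.52% and 7.26% in NT embryos, and was not called without library 1a (adjusted p = 0.0961). Xlr5a and Xlr5b, neighbouring copies of an X-linked family, were called with -67.4 and -62.3 points, but their reads can come from other copies and their NT samples lay 34.0 and 38.1 points apart.

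Acp5 was the only window called higher. It was at 14.3% and 17.8% in fibroblasts and 39.3% and 40.4% in NT embryos (23.8 points, adjusted p = 0.00933, quasi-binomial model), and limma gave an adjusted p of 0.0622. The agreement of the window levels did not extend to single CpGs. Among its 10 CpGs with at least 10 calls in each sample, levels reached at most 17.3% in fibroblasts, and in NT embryos they ran from 23.5% to 64.3% in sample 1 and from 13.3% to 100% in sample 2.

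Along the other promoters the loss was also uneven. In Zglp1 both NT samples were below both fibroblast samples at all 13 CpGs with at least 10 calls, in Ddx4 at all 9, in Rpl10l at all 5, in Asz1 at all 4 and in Slc25a31 at 14 of 16. This was so at 5 of 8 CpGs in Sohlh2, 10 of 17 in Hoxa6 and 1 of 2 in Sycp1. All these windows had been called lower, and CpGs close together can share reads, so the counts only describe them. Over all 100 bp tiles the same was so in 44.3%, and the share over all single CpGs was not counted. The Rpl10l CpG 152 bp before the start was already at 8.33% and 10% in fibroblasts, against 2.82% and 1.54% in NT embryos. In Slc25a31 NT sample 1 ran from 0% to 95.8% and NT sample 2 from 3.85% to 79.3%, while the fibroblast samples stayed at 85.1% or more and 67.3% or more.

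**Figure D5:**
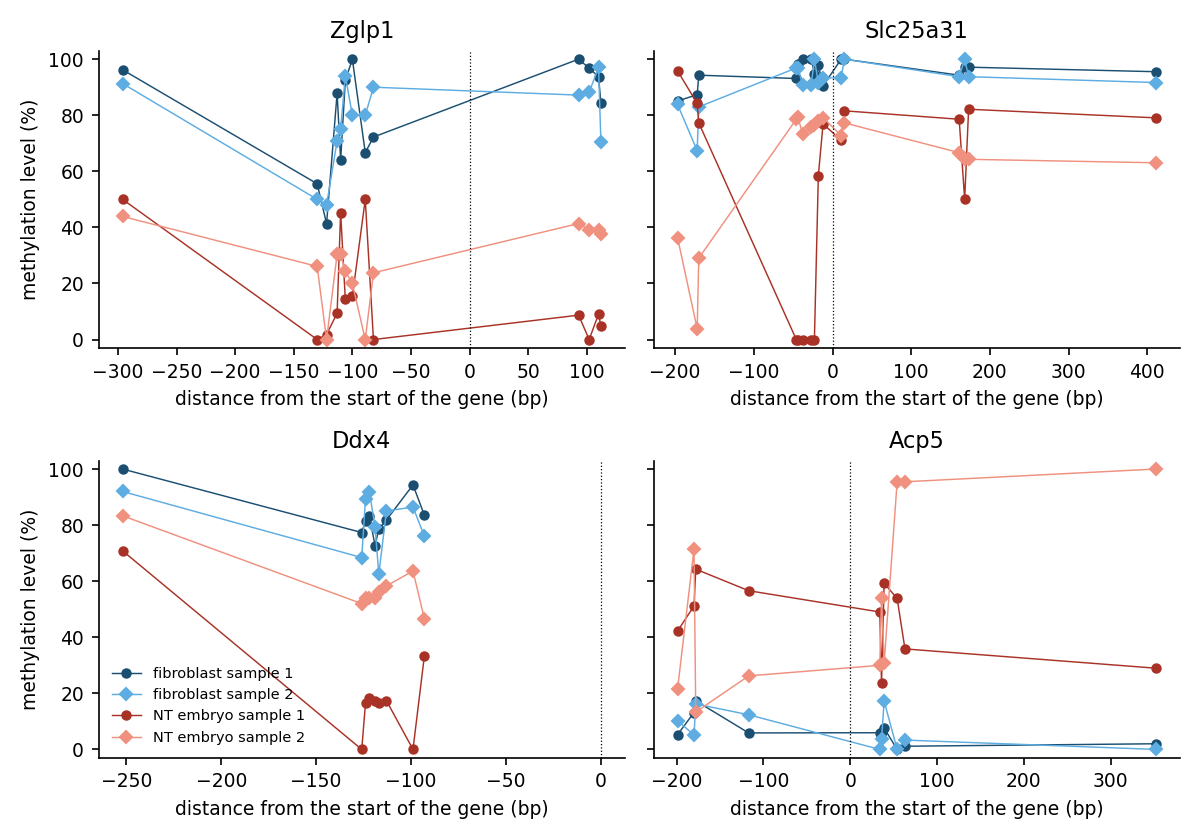
Methylation level (%, y axis) of single CpGs with at least 10 calls in each sample against distance from the start of the gene in bp (x axis) for 4 genes, each sample drawn in its own colour. NT embryo points lie below the fibroblast points in Zglp1 and Ddx4 and above them at most CpGs of Acp5.

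Promoters of imprinted, pluripotency, fibroblast and housekeeping genes gave no call. The pluripotency, Col1a2 and housekeeping windows started too low for a fall of 20 points, so that the threshold alone kept them from being called lower. Imprinted genes carry methylation on a single parental copy, mostly outside the windows tested here. Of 22 on the list, 5 had windows (6 in all), with 0 called. Imprint control regions outside these windows were not tested as such. The longest higher region of the restricted test, chr11:11925600-11926499, lies downstream of the Grb10 window (chr11:11936922-11938422, minus strand). That window itself was at 3.18% and 3.29% in fibroblasts and 1.73% and 1.28% in NT embryos. The Plagl1 window, shared with Hymai, was at 34.3% and 31.6% in fibroblasts and 35.2% and 41.9% in NT embryos, and Igf2r at 19.5% and 19.7% against 15.7% and 9.89%. The more methylated Gnas window was at 31.1% and 24.7% against 6.32% and 21.2%, with an adjusted p of 0.152. The 6 placed pluripotency genes of 18 (Esrrb, Sox2, Klf2, Fgf4, Tfcp2l1 and Klf4), whose proteins sustain the early embryo and stem cells, were at 4.08% or less on average in fibroblasts and 2.60% or less in NT embryos. Pou5f1 and Nanog were not placed. Col1a2, a collagen gene of fibroblasts, was at 1.96% and 4.40% against 1.63% and 1.08%, and the 4 housekeeping windows had at most 13.3% in any sample. The highest of these was Pgk1, an X-linked gene of glycolysis.

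Some methylated promoters moved little. Among windows at 60% or more with at least 50 calls in each sample, Apob, which encodes the main protein of low-density lipoprotein, was at 85.1% and 82.0% in fibroblasts and 91.4% and 77.6% in NT embryos. Tc2n was at 66.5% and 62.4% against 49.7% and 78.9%, so that its small mean difference of -0.120 points hides NT samples 29.1 points apart. Spata22, a gene of meiotic recombination, was at 74.8% and 71.3% against 62.0% and 62.8% (adjusted p = 0.347), below both fibroblast samples but not called.

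The flanks of unmethylated promoters held less methylation in NT embryos. Around windows under 20%, CpGs in the bin of 250 bp that begins 2000 bp before the start were at 14.03% and 13.1% in fibroblasts and 7.40% and 8.17% in NT embryos (1250 CpGs). In the 250 bases after the start (70078 CpGs) the means were 1.23% and 1.17% in fibroblasts and 1.35% and 1.23% in NT embryos. In every bin of 250 bp farther than 500 bp from the start, up to 2000 bp on either side, both NT means lay below both fibroblast means.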

How the data were processed

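Per the labels' protocols, libraries were made from MspI-digested, size-selected, bisulfite-converted DNA. For each library the authors deposited, per CpG, a count of calls seen and a count of methylated calls, and these counts are the values tested. Positions are on mm9, per the submitters' processing notes, and are printed as deposited. No source used here says whether they start from 0 or 1, or names the aligner or the caller. The CpG density is a score the authors deposited per tile, and 26 per-sample columns of that deposited table of fractions were not used.

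Calls were summed over tiles of 100 bp with at least 10 calls in each of the 4 samples. Each tile or window was fitted with a quasi-binomial model of the calls, whose dispersion was moderated in R 4.3.3 by the squeezeVar function (limma 3.58.1), never below 1, followed by an F test and Benjamini-Hochberg adjustment over all features. A call needed an adjusted p under 0.05 and 20 points. Single values per sample were compared by two-sided exact permutation tests. On simulated data the model returned the size of the simulated falls but called none of them. The simulated spread between samples was estimated from the real ones. A far smaller share of tiles was lowered there than the 21.7% whose mean fell by at least 20 points in the data. The adjustment depends on that share, so the simulation does not give the power of the tests run here. A lack of calls does not show a lack of change. The scripts used scipy 1.17.1, pandas 2.3.3 and numpy 2.4.6 under Python 3.11.15, and matplotlib 3.10.9 for figures.

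Named tiles had at least 3 CpGs and 20 calls in each sample, moved the same way in both same-numbered comparisons with no overlap between the stages, lay over 1000 bp apart, and were the 8 largest falls and 8 largest rises. Since the main test called none, they are described without a call. Called regions were taken from the restricted test. Gene names rest on matching CpG spacing of RefSeq promoters (GRCm38.p6) with at least 6 CpGs, and on no conversion of coordinates; this step and the promoter windows were added after the files had been seen. The members and the gene lists were chosen with earlier results of these data known. Same replicate numbers do not mark a shared animal or day in the labels. Other call minimums, tile sizes, models, minimum differences, chromosomes and left-out samples were tried as alternatives. Depth is given in calls; calls are not counts of molecules.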

Additional observations from a re-analysis of the deposited data

How the results depend on the processing

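The mean difference of -5.85 points kept its sign under all alternatives run: it was -7.17 with a minimum of 5 calls, -8.27 with CpGs weighted by their calls and -6.66 when so weighted without the 100 CpGs with most calls in any sample, a setting chosen after seeing the data. Leaving out 1 sample at a time gave -5.32 to -6.73. X minus autosomes was 7.66 with a minimum of 5 calls, 5.39 with 20, 5.77 after reweighting, and 6.97 to 7.53 leaving out 1 sample. Over all tiles no alternative at 100 bp or for single CpGs gave a call, leaving out 1 sample included (0 to 0), while tiles of 1000 bp gave 22470. The restricted test of tiles at 10% or more, chosen after seeing the data, called 21098 in all, and 21719 at mean levels of 10% to 90%. It called 13396 with a minimum of 20 calls, 10954 without library 1a, 39356 with libraries 1 and 1a as 2 samples, 0 by limma, and 0 to 60961 leaving out 1 sample. With the replicate numbers as a block it called 0, and the test over all tiles called 0 too. Deviations from the stage means correlated at -0.0307 between same-numbered samples. That value cannot tell whether such samples share an animal or culture, which the labels do not state. The promoter windows, also chosen after seeing the data, gave 77 calls, 15 by limma, 129 with a minimum of 10 points, 0 over the 300 bases alone, 0 to 126 leaving out 1 sample, and 60 with the replicate block. Windows near 0 difference changed sign. Tfcp2l1 had 0.0604 points without library 1a and from -0.736 to 0.0179 leaving out 1 sample. Over the same samples left out, Fgf4 ran from -1.04 to 0.264, Hprt from -0.884 to 0.0388, the less methylated Gnas window from -0.464 to 0.303 and Igf2 from -0.207 to 0.759. Apob ran from -5.91 to 7.86, the methylated Tc2n window from -14.7 to 14.4 (0.1402 without library 1a) and its other window from -0.246 to 1.08. Depth limits the NT embryo samples most, at medians of 10 and 8 calls per CpG.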

Other observations

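Calls were shared unequally among a few positions. On chromosome 2, 6 CpGs from 22444104 to 22444380 took 1.31% and 1.24% of all calls in NT embryo samples 1 and 2, against 0.0222% and 0.0277% in fibroblast samples 1 and 2, a ratio of mean shares of 51.0. Their methylated share was 2.58% and 1.79% in NT embryos and 1.43% and 1.32% in fibroblasts. The CpG at chr2:98506659 took 2.04% and 1.69% of the fibroblast calls and 0.815% and 0.943% of the NT embryo calls.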
